A study of Sus scrofa with 12 samples.

Results

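The genes described here are 9 genes of the tight junction, the claudins CLDN1, CLDN3, CLDN4, CLDN5, CLDN6 and CLDN7, occludin (OCLN), the junctional adhesion molecule F11R and the scaffold TJP1. They were chosen by gene symbol, and 8 of the 9 were found among the 19681 Ensembl pig genes of the deposited tables. CLDN5, the main claudin of vascular endothelium, had no symbol match and is not analysed here, so the endothelial set below lacks its best known member. RNA sequencing had been done on 12 libraries in 4 groups of 3 biological replicates (A, B and C). IEC2, IEC4 and IEC12 were collected on days 2, 4 and 12 of the endothelial induction of porcine iPS cells, and AOC was a porcine endothelial cell line. Induction used the WNT activator CHIR99021 first, then BMP4, FGF2 and VEGF, then the endothelial growth medium EGM-2 with VEGF. IEC2 was therefore taken at the end of the CHIR99021 step, IEC4 at the end of the BMP4, FGF2 and VEGF step, and IEC12 during the EGM-2 step without any sorting for endothelial cells. AOC is a single cell line, so its replicates carry no variation between animals. Values are FPKM, which are fragment numbers divided by transcript length and by the size of the library. Because of the division by length, levels of different genes can be set side by side.

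Tight junctions seal the space between neighbouring cells at the apical border of their lateral membranes. Claudins are membrane proteins whose extracellular loops form the strands and, depending on the claudin, seal the gap or leave selective pores in it. Occludin and F11R are membrane proteins of the same contact, and TJP1, also called ZO-1, is the cytoplasmic scaffold that ties them to actin. Epithelia commonly use CLDN1, CLDN3, CLDN4 and CLDN7, whereas CLDN6 is known from early embryonic and pluripotent cells.

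The cell type labels were checked against marker genes before the junction genes were read. AOC carried most of the endothelial markers, with CDH5 (VE-cadherin) at 103 to 137 FPKM and PECAM1 (CD31) at 91.7 to 131 FPKM. Of the 15 found, 11 had a mean of at least 1 FPKM in AOC. KDR and ENG did not have their highest mean in AOC. KDR had a mean of 1.36 FPKM in AOC, below IEC2 (2.95) but above IEC4 (0.152) and IEC12 (0.0125). ENG had a mean of 0.872 FPKM in AOC, 2.54 in IEC2 and 3.26 in IEC4. The summed FPKM of the 15 endothelial markers found ranged from 396 to 570.5 over the AOC libraries, from 5.53 to 9.45 over IEC2, from 4.67 to 5.85 over IEC4 and from 0.877 to 2.68 over IEC12. CDH5 and CLEC14A were listed at 0 in all 9 IEC libraries, and PECAM1 was at 0.0197 to 0.105 FPKM in IEC12. In bulk RNA the IEC groups thus showed little or none of CDH5, CLEC14A and PECAM1, and the stages are called below by their day only. The paper describes them as iPS cells after days of induction. It reports a minority of CD31-positive cells on day 12 by flow cytometry, a measure of protein that is not compared here. Epithelial markers stood out in IEC4. The 12 markers found summed to 380.0 to 1097 FPKM there, against 24.1 to 33.7 in IEC2, 5.52 to 18.0 in IEC12 and 4.70 to 6.65 in AOC. E-cadherin (CDH1) was at 7.51, 6.54 and 42.8 FPKM in IEC4 A, B and C and was listed at 0 in all 3 AOC libraries. EPCAM was listed at 0 in all 3 IEC2 libraries, and 5 of the 12 epithelial markers were so in AOC. In IEC4, 10 of the 12 had a mean of at least 1 FPKM, all but EPCAM (0.861) and GRHL2 (0.997). KRT8 alone had a mean of 494 FPKM there, and ESRP1 had a higher mean in IEC2 (10.1 FPKM) than in IEC4 (8.37 FPKM). The amnion and trophoblast list, 11 of 11 found, summed to 96.1 to 269 FPKM in IEC4, 9.69 to 10.6 in IEC2, 15.4 to 32.3 in IEC12 and 3.37 to 4.03 in AOC. GABRP alone had a mean of 114 FPKM in IEC4, and KRT7, which is on the epithelial list too, 32.6. The list did not move as one. Of its tested members, GABRP, KRT7 and HAND1 had their highest mean in IEC4, GATA3, GATA2 and ISL1 in IEC12, and TFAP2A in IEC2. The part of these cell types in the junction results was not tested, and in bulk RNA fewer cells of a type cannot be told apart from less RNA per cell.

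IEC4 replicate C stood apart from IEC4 A and B in most of these genes. Its FPKM over the mean of A and B was 8.20 for CLDN4, 5.69 for CLDN3, 4.59 for CLDN1, 2.93 for CLDN6, 2.06 for OCLN, 1.82 for F11R and 1.44 for TJP1. Among the 10246 genes with a mean of at least 1 FPKM in IEC4 the median of this ratio was 1.01, and 6.59% reached 2, against 5 of the 7 junction genes at that level. The epithelial markers at that level had a median ratio of 2.79, with 6 of 10 at 2 or more. Among the other claudins, CLDN23 had a ratio of 20.6, CLDN8 of 1.76, CLDN9 of 0.980 and CLDN10 of 0.684. For this reason the tested differences of the listed genes from IEC4 are also given without replicate C.

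**Figure D1:**
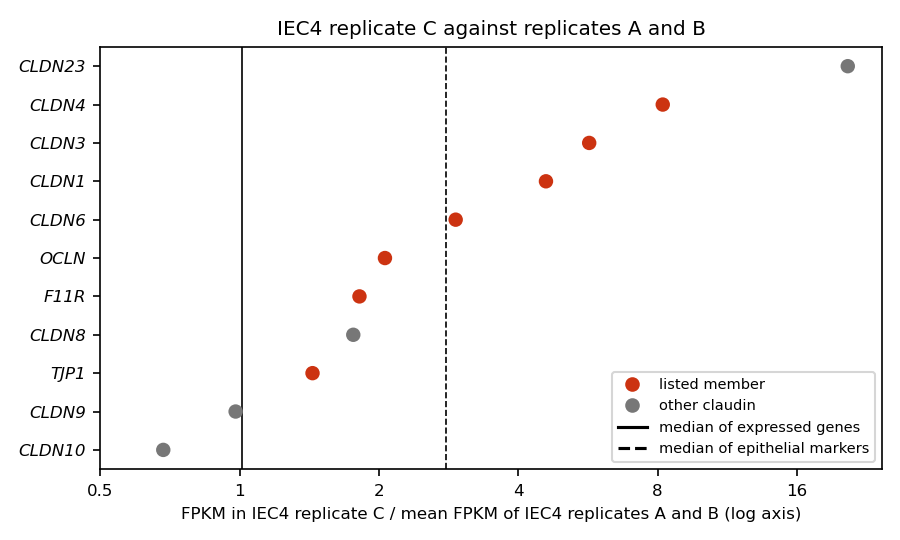
FPKM in IEC4 replicate C divided by the mean of replicates A and B (x, log axis) for the listed genes (red) and the other claudins (grey) with a mean of at least 1 FPKM in IEC4. The solid line marks the median of 10246 genes (1.01) and the dashed line that of 10 epithelial markers (2.79). All 7 junction genes lie to the right of the solid line, from 1.44 for TJP1 to 8.20 for CLDN4.

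In the pig assembly Sscrofa11.1 (RefSeq), 3 of the 8 genes lie on chromosome 3. CLDN3 spans 11019073 to 11020102 and CLDN4 spans 11039711 to 11053930, with 19608 bases between them. CLDN6 spans 39168506 to 39172631 on the same chromosome and ends 99 bases before CLDN9. The counting was not stated to use strand, so fragments near this border could be given to either gene. TJP1 is on chromosome 1 (144930387 to 145195857), F11R on chromosome 4 (89425101 to 89447889) and CLDN7 on chromosome 12 (52612517 to 52628376). CLDN1 is on chromosome 13 (127714857 to 127730628) and OCLN on chromosome 16 (47600175 to 47652435).

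CLDN6 was the most abundant of the listed claudins in each of the 9 IEC libraries. It was at 129.8, 86.9 and 97.1 FPKM in IEC2 A, B and C, at 202, 216 and 612 FPKM in IEC4, at 37.1, 67.4 and 70.5 FPKM in IEC12 and at 2.16, 4.05 and 2.64 FPKM in AOC. None of the 4 groups overlapped, and the order of the means was IEC4, IEC2, IEC12 and AOC. The neighbours IEC2 (105 ± 22.4, SD, n = 3) and IEC12 (58.4 ± 18.5, SD, n = 3) did not pass the test of their difference, and every other pair did.

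CLDN1, a sealing claudin of epithelia, was at 0.26, 0.41 and 0.30 FPKM in IEC2 and at 8.05, 10.2 and 41.9 FPKM in IEC4. In IEC12 it was at 1.60, 1.89 and 2.02 FPKM and in AOC at 2.41, 2.36 and 2.60 FPKM. The order was thus IEC4, AOC, IEC12 and IEC2, again without overlap. AOC (2.46 ± 0.124, SD, n = 3) and IEC12 (1.83 ± 0.213, SD, n = 3) differed by 0.29 on the log2(FPKM + 1) scale (SE 0.43, limma adjusted p = 0.594), which did not pass.

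CLDN3 and CLDN4, receptors for Clostridium enterotoxin as well as strand proteins, exceeded 2 FPKM in IEC4 alone. CLDN3 was at 4.47, 4.99 and 26.9 FPKM in IEC4, at 0.22, 1.88 and 1.73 FPKM in IEC12, at no more than 0.04 FPKM in IEC2 and listed at 0 in all 3 AOC libraries. CLDN4 was at 7.55, 7.34 and 61.1 FPKM in IEC4 and at no more than 0.06 FPKM in the other 9 libraries. In IEC12, CLDN3 replicate A was far below B and C. CLDN7, also an epithelial claudin, did not exceed 0.10 FPKM in any of the 12 libraries and failed the filter on low values.

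OCLN was at 1.63, 1.01 and 1.19 FPKM in IEC2, at 19.6, 16.4 and 37.1 FPKM in IEC4, at 3.12, 4.97 and 4.23 FPKM in IEC12 and at 13.7, 14.3 and 14.0 FPKM in AOC. The groups did not overlap, and AOC varied least (14.0 ± 0.299, SD, n = 3). F11R was at 1.96, 5.93 and 3.91 FPKM in IEC2, at 64.2, 41.9 and 96.3 FPKM in IEC4, at 1.43, 3.35 and 4.30 FPKM in IEC12 and at 38.5, 42.7 and 25.3 FPKM in AOC. IEC2 overlapped with IEC12, and AOC B lay above IEC4 B. F11R thus fell into a low pair (IEC2 and IEC12) and a high pair (IEC4 and AOC), and within neither pair did the difference pass the test.

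TJP1 varied less than the membrane proteins. It was at 8.20, 11.4 and 12.6 FPKM in IEC2, at 19.8, 18.2 and 27.3 FPKM in IEC4, at 8.13, 8.96 and 13.1 FPKM in IEC12 and at 4.21, 4.97 and 3.97 FPKM in AOC. IEC2 and IEC12 overlapped, IEC4 lay above every other library and AOC below every other library.

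**Figure D2:**
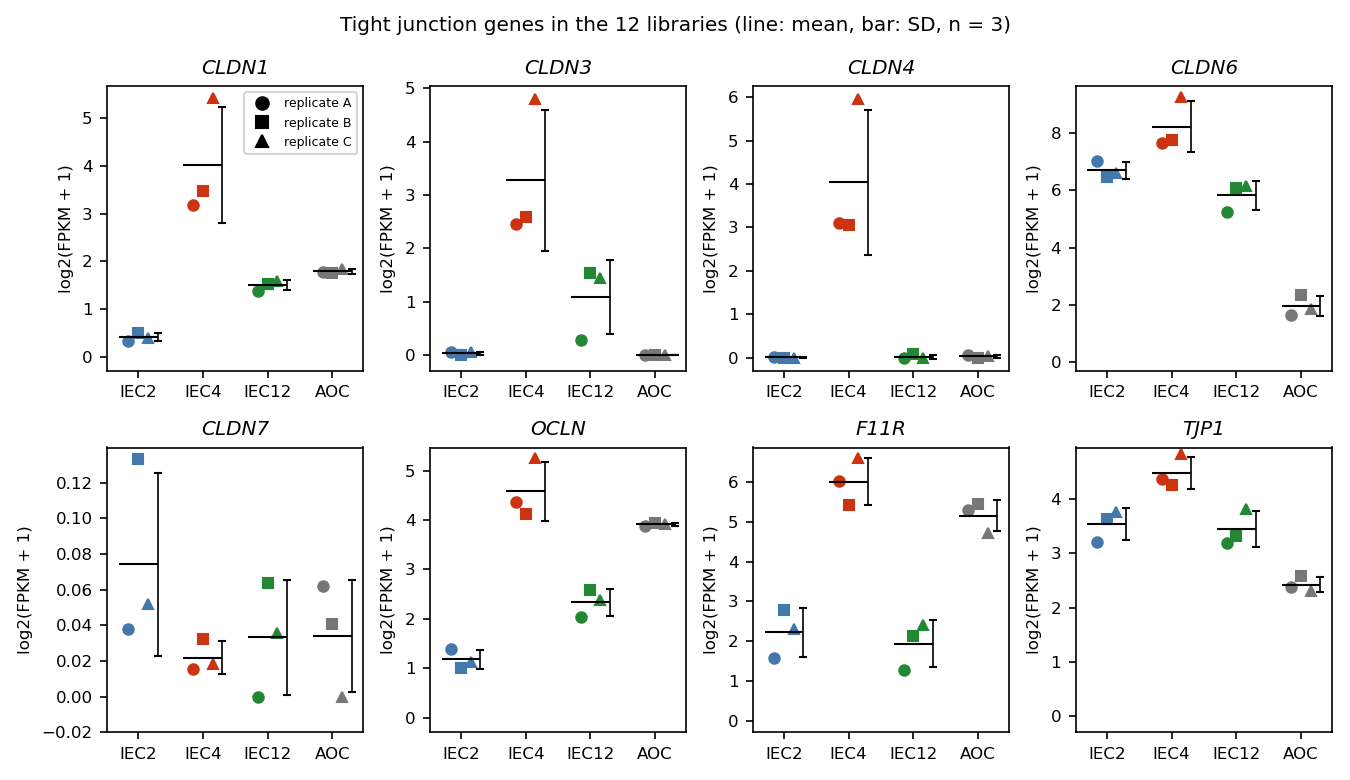
Level of each of the 8 genes found, as log2(FPKM + 1) (y, scale set for each gene), in the 3 libraries of IEC2, IEC4, IEC12 and AOC (x). Symbols are replicates A, B and C, lines are means and bars are SD (n = 3). Replicate C, the triangle, is the highest IEC4 library for all but CLDN7, whose axis stays under 0.14, and CLDN6 is the gene with the widest gap between AOC and the IEC groups.

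With detection set at 1 FPKM in all 3 libraries of a group, IEC2 used 4 of the 8 genes, CLDN6, OCLN, F11R and TJP1. IEC4 used 7, all but CLDN7. IEC12 and AOC each used the same 5, which were CLDN1, CLDN6, OCLN, F11R and TJP1. With the group mean in place of every library, CLDN3 joined the IEC12 set, which then held 6. The sets of IEC12 and AOC held the same names at different levels, since CLDN6 was 19.8-fold lower and F11R 11.7-fold higher in AOC by the ratio of mean FPKM.

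The make-up of claudin RNA was compared as the share of each claudin in the summed FPKM of the 13 claudins found by symbol, 5 of them listed members. A share within a library does not move when the library is rescaled. CLDN5, the main claudin of vascular endothelium, is not in the sum, nor are other claudins without a symbol match. How much claudin RNA this leaves out, in AOC above all, is not known, and the shares are of the claudins found. The sum was 130.0 ± 18.7 FPKM (SD, n = 3) in IEC2, 432 ± 304 in IEC4, 92.5 ± 15.5 in IEC12 and 5.83 ± 0.835 in AOC. Without replicate C, the IEC4 libraries gave 242 and 271 FPKM, with a mean CLDN6 share of 81.6%. CLDN6 made up 80.0 ± 6.09% (SD, n = 3) in IEC2, 80.4 ± 2.73% in IEC4, 61.9 ± 11.2% in IEC12 and 49.7 ± 9.60% in AOC. Its share in IEC2 minus that in IEC4 was -0.428 percentage points (exact permutation test, two-sided, p = 0.9, n = 3 each), whereas its level differed between them.

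The next claudin beside CLDN6 by mean share was CLDN1 in AOC, CLDN10 in IEC2 and IEC12, and CLDN8 in IEC4. CLDN1 held 42.8 ± 6.58% (SD, n = 3) in AOC, against 0.259% in IEC2, 4.14 ± 1.06% in IEC4 and 2.00 ± 0.166% in IEC12. CLDN10, which forms ion pores, held 33.6 ± 12.2% in IEC12, against 13.8 ± 2.18% in IEC2, 2.47 ± 2.11% in IEC4 and 0.641% in AOC. In IEC4 the remainder was spread over CLDN8 (4.77 ± 1.42%), CLDN4 (4.54 ± 2.83%), CLDN1, CLDN10 and CLDN3 (2.38 ± 0.920%). Without IEC4 C the shares were 5.55% for CLDN8, 3.54% for CLDN1, 3.33% for CLDN10, 2.91% for CLDN4 and 1.84% for CLDN3, so that CLDN4 then ranked below CLDN1 and CLDN10. In IEC2, CLDN9, the close neighbour of CLDN6, held 5.91 ± 3.85%. Of the 18 pairwise tests of the shares of CLDN6, CLDN10 and CLDN1, 15 reached the exact permutation p of 0.1, the smallest that 3 against 3 libraries allow, with an adjusted p of 0.12.

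**Figure D3:**
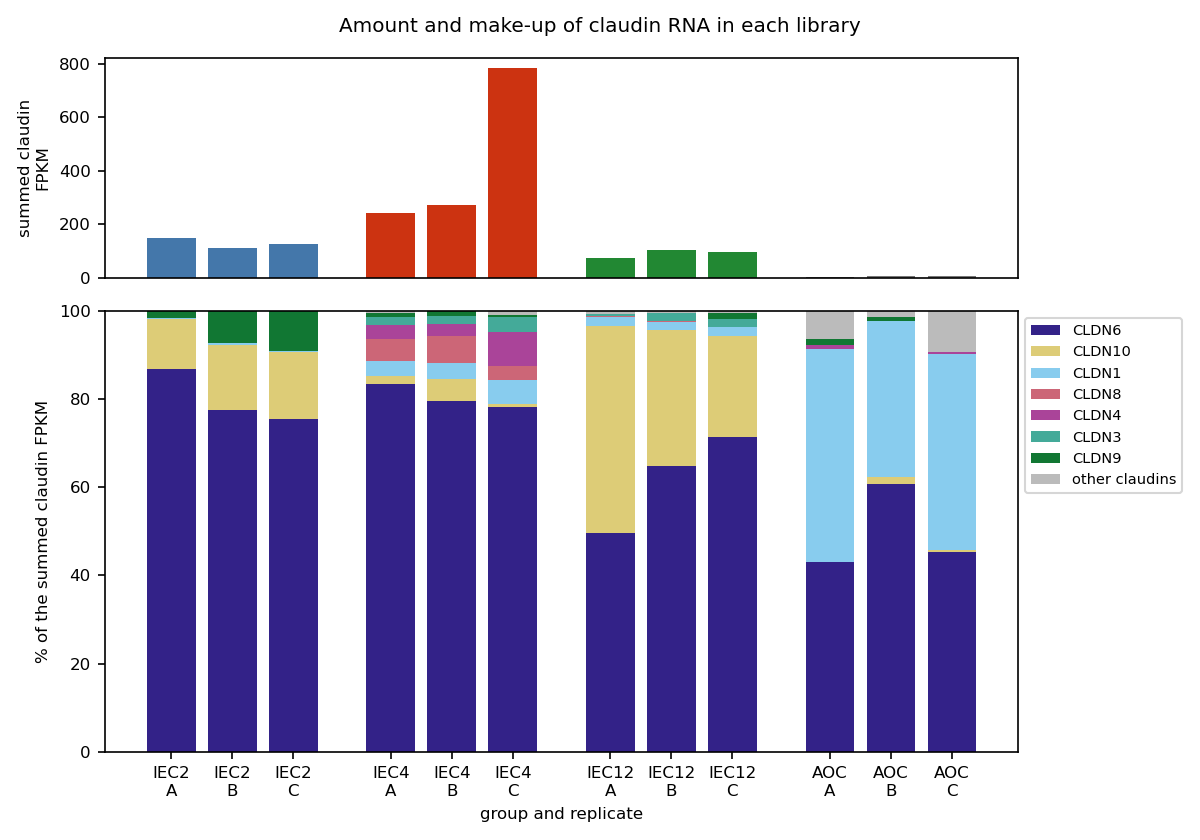
Summed FPKM of the 13 claudins found by symbol, without CLDN5 (top), and the percentage of it held by each claudin (bottom) in each of the 12 libraries (x). The AOC sums, 4.995 to 6.66 FPKM, hardly rise above the axis, and their bars are mostly CLDN6 and CLDN1 (light blue), with CLDN1 ahead in AOC A (48.3%), where the IEC12 bars are mostly CLDN6 and CLDN10 (yellow).

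Differences between groups were tested with limma on log2(FPKM + 1). On this scale the change of a weakly expressed gene appears smaller than it is. A gene passed at a Benjamini-Hochberg adjusted p under 0.05 over all genes tested. Genes needed 1 FPKM in at least 3 libraries of the fit, and 7 of the 9 listed genes met this. CLDN4 met it only through the 3 IEC4 libraries and so had to differ from the other groups, and CLDN3 met it through IEC4 and 2 IEC12 libraries. CLDN6, OCLN, F11R and TJP1 were at 1 FPKM or more in all 12 libraries, so the filter does not bear on them. The 3 contrasts between stages share libraries with each other, as do the 3 contrasts with AOC, so their values stand side by side and are not independent. In the order IEC4 and IEC2, IEC12 and IEC4, IEC12 and IEC2, then AOC with IEC2, IEC4 and IEC12, the 2 groups did not overlap for 7, 7, 4, 5, 6 and 6 of the 7 tested genes, against 53.5%, 56.3%, 54.4%, 71.5%, 76.2% and 66.3% of all genes tested.

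From IEC2 to IEC4, all 7 tested genes rose, where 24.8% of the 10542 genes tested rose and 12.5% fell. OCLN rose 19.1-fold by the ratio of mean FPKM (log2 difference 3.40, SE 0.29, limma adjusted p = 3.05e-05) and 14.1-fold without IEC4 C. F11R rose 17.1-fold (3.80, SE 0.41, limma adjusted p = 0.000112) and 13.5-fold without it. CLDN1 rose by 3.62 (SE 0.48, limma adjusted p = 0.00038) and by 2.93 without it. These 3 genes also passed the stricter limits that the study applied to its own gene selection (p and adjusted p under 0.001 and a log2 change above 3), which 1.18% of all genes passed. CLDN1 no longer met the limit on the log2 change without IEC4 C.

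CLDN3 and CLDN4 rose from near 0, by 3.25 (SE 0.57, limma adjusted p = 0.00201) and 4.03 (SE 0.63, limma adjusted p = 0.00105). Without IEC4 C these values were 2.48 and 3.07. CLDN3 still passed, whereas CLDN4 then had too few libraries at 1 FPKM for the filter, and its value comes from a fit that kept the genes of the full filter. CLDN6 rose 3.28-fold (1.53, SE 0.41, limma adjusted p = 0.0159), or 2.00-fold without IEC4 C (limma adjusted p = 0.0257), and it did not pass without IEC2 replicate B (limma adjusted p = 0.0554). TJP1 rose 2.02-fold (0.95, SE 0.23, limma adjusted p = 0.0102), the smallest rise of the 7, and 1.77-fold without IEC4 C. The epithelial marker list moved with these genes, with 8 of 9 tested markers higher and ESRP1 not passing, although 6 of the 9 met the filter only through IEC4 libraries.

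From IEC4 to IEC12, all 7 tested genes fell, where 26.9% of all genes tested fell and 17.3% rose. F11R was 22.3-fold lower (log2 difference -4.08, SE 0.41, limma adjusted p = 9.41e-05), or 17.5-fold without IEC4 C (-3.79, limma adjusted p = 0.000489), and was the only member to pass the stricter limits, which 0.939% of all genes passed. CLDN1 was 10.9-fold lower and 4.97-fold lower without IEC4 C. CLDN3 was 9.48-fold lower and 3.70-fold without it, and CLDN6 was 5.88-fold lower and 3.58-fold without it. OCLN was 5.94-fold lower (4.39-fold without it) and TJP1 2.17-fold lower (1.89-fold without it). CLDN4 returned to no more than 0.06 FPKM (-4.01, SE 0.63, limma adjusted p = 0.00105), and the difference was -3.05 without IEC4 C, with the same limit of the filter. The other 6 genes passed without IEC4 C as well. All 9 tested epithelial markers fell as well.

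Between IEC2 and IEC12, OCLN alone passed among the 7 tested genes, 3.22-fold higher in IEC12 (log2 difference 1.16, SE 0.29, limma adjusted p = 0.00988), where 24.2% of all genes tested were higher and 19.3% lower. None of the 7 passed the stricter limits (limma; 2 had an unadjusted p under 0.05), which 1.22% of all genes passed. CLDN1 was higher in IEC12 by 1.10 (SE 0.48, limma adjusted p = 0.0903) and CLDN3 by 1.06 (SE 0.57, limma adjusted p = 0.164), and CLDN6 was lower by -0.87 (SE 0.41, limma adjusted p = 0.114). These 3 genes, too, did not overlap between the 2 groups. F11R (-0.28, SE 0.41) and TJP1 (-0.10, SE 0.23) overlapped. A miss of the threshold does not show that IEC2 and IEC12 have the same level.

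AOC differed from all 3 stages in CLDN6 and TJP1, both lower in AOC. CLDN6 was 35.5-fold lower than in IEC2 (log2 difference -4.75, SE 0.39, limma adjusted p = 6.82e-07), 116-fold lower than in IEC4 (70.9-fold without IEC4 C) and 19.8-fold lower than in IEC12 (-3.88, limma adjusted p = 4.84e-06). TJP1 was 2.45-fold lower than in IEC2 (limma adjusted p = 0.000698), 4.97-fold lower than in IEC4 (limma adjusted p = 5.16e-06; 4.34-fold and 2.94e-05 without IEC4 C) and 2.29-fold lower than in IEC12 (limma adjusted p = 0.00153). OCLN was 10.99-fold higher in AOC than in IEC2 (2.73, SE 0.26, limma adjusted p = 2.14e-06) and 3.42-fold higher than in IEC12 (1.57, limma adjusted p = 0.000245). F11R was 9.03-fold higher than in IEC2 (2.94, SE 0.39, limma adjusted p = 3.77e-05) and 11.7-fold higher than in IEC12 (3.22, limma adjusted p = 2.13e-05).

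Against IEC4, AOC was not higher for any listed gene that passed. CLDN1 was 8.15-fold lower in AOC (3.71-fold without IEC4 C). CLDN3, listed at 0 in AOC, passed as lower with and without IEC4 C. CLDN4, which met the filter only through the IEC4 libraries, was lower by -4.00. Its difference was -3.04 without IEC4 C, in the fit that kept the genes of the full filter. OCLN was lower in AOC by -0.67 (SE 0.26, limma adjusted p = 0.0354), but without IEC4 C this was -0.34 (limma adjusted p = 0.141), and it passed in only 7 of its 16 alternatives. It also failed without AOC A, B or C (limma adjusted p = 0.0787, 0.0689 and 0.0749). F11R did not pass (-0.86, SE 0.39, limma adjusted p = 0.0671), and without IEC4 B it did (-1.16, limma adjusted p = 0.029), whereas it was -0.57 without IEC4 C (limma adjusted p = 0.242). Of the 7 tested genes, AOC passed with 3 higher and 2 lower against IEC2, 0 higher and 6 lower against IEC4, and 2 higher and 2 lower against IEC12. The shares of all 11053 genes tested were 26.7% higher and 37.1% lower against IEC2, 22.1% and 47.0% against IEC4, and 22.4% and 36.2% against IEC12. The stricter limits were passed by 1 gene against IEC2 (CLDN6), 3 against IEC4 (CLDN3, CLDN4 and CLDN6) and 2 against IEC12 (CLDN6 and F11R), and by 5.47%, 5.17% and 4.41% of all genes. CLDN3 was at -2.52 against IEC4 without IEC4 C and no longer met the limit of 3.

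**Figure D4:**
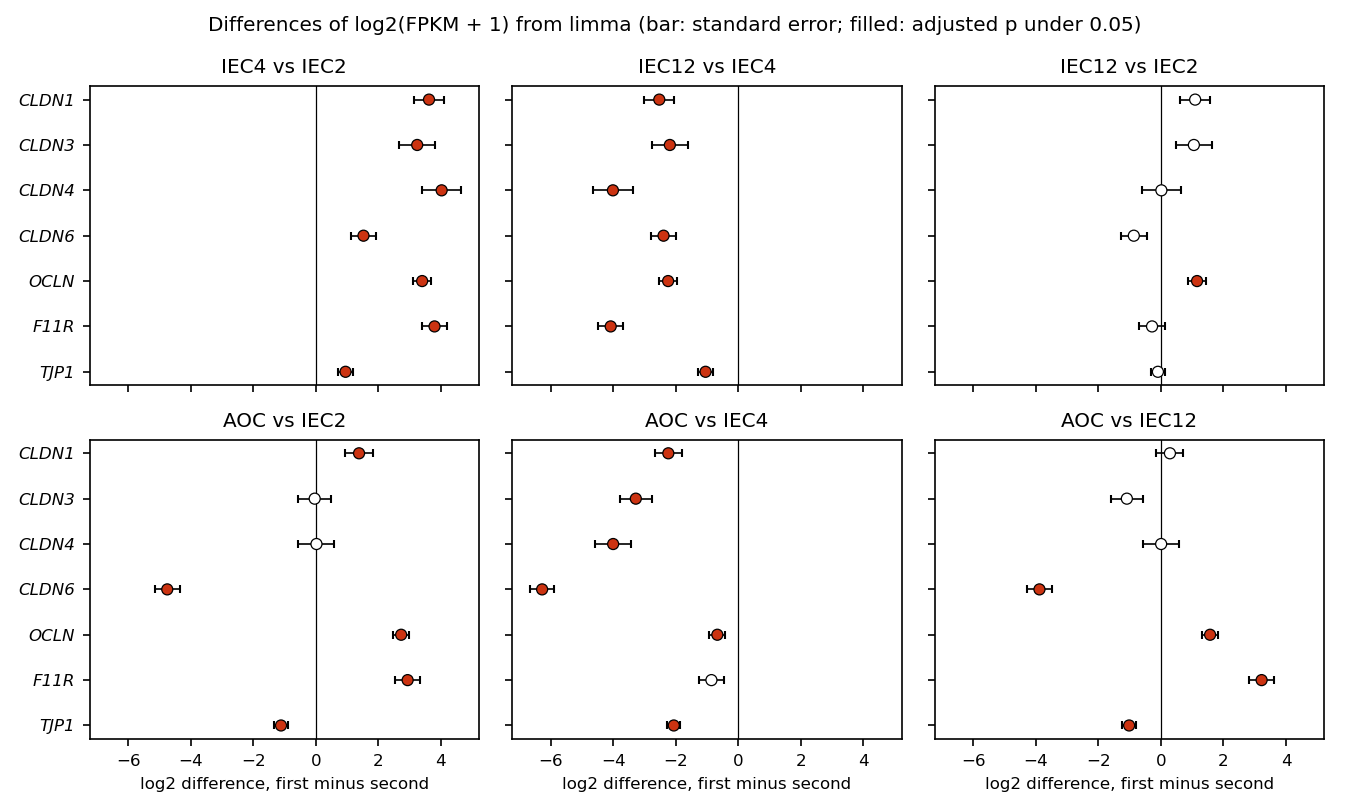
Difference of log2(FPKM + 1) from limma (x, first group minus second) for the 7 tested genes (y) in the 6 comparisons. Bars are standard errors and filled points passed at an adjusted p under 0.05. All points are filled to the right for IEC4 against IEC2 and to the left for IEC12 against IEC4, whereas the AOC panels for IEC2 and IEC12 have CLDN6 and TJP1 to the left of 0 and OCLN and F11R to the right.

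The rest of the pathway was read from a list of 57 further junction genes, of which 43 were found. From IEC2 to IEC4, 12 of 28 tested genes were higher and 1 lower, with a median log2 difference of 0.40 against 0.20 over all genes, of which 24.8% were higher and 12.5% lower. Of the 28, 5 (CLDN8, MAGI1, MARVELD2, PATJ and TJP3) met the filter only through the IEC4 libraries, where they are high, which bears on the counts against IEC4. CLDN8, a barrier claudin of the kidney tubule, was listed at 0 in all 3 IEC2 libraries and stood at 12.4, 16.2 and 25.2 FPKM in IEC4. LSR, a protein of contacts between 3 cells, rose by 2.15 (SE 0.43, limma adjusted p = 0.00366) and the scaffold TJP3 by 2.06 (SE 0.17, limma adjusted p = 2.46e-05). CLDN10 was the single gene to fall, from 17.7 to 7.83 FPKM (-1.20, SE 0.32, limma adjusted p = 0.0149), a call that ended without IEC4 C (-1.09, limma adjusted p = 0.0502). Without IEC4 A, B or C, 7, 7 and 6 genes of the list passed in place of 13, and 12, 11 and 10 when the genes of the full filter were kept.

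From IEC4 to IEC12, 17 of the 28 were lower and 3 higher, where 26.9% of all genes tested were lower and 17.3% higher. CLDN8 fell to 0.219 FPKM or less, and PARD6B, a partner of the polarity protein PARD3, fell by 2.33 on the log2 scale (limma adjusted p = 0.000103). ARHGEF2, a RhoA activator held at junctions, fell by 2.74 (limma adjusted p = 0.000137). PARD3, which sets apical polarity, rose instead and reached 165 to 176 FPKM in IEC12, against 22.3 to 38.3 in IEC4, 13.2 to 19.1 in IEC2 and 0.907 to 1.51 in AOC. CLDN10 rose by 1.91 (limma adjusted p = 0.00131) and CXADR, a virus receptor of junctions, by 0.64 (limma adjusted p = 0.01). Without IEC4 A, B or C, 12, 10 and 11 genes passed in place of 20. When the genes of the full filter were kept, 12 were lower and 3 higher without IEC4 C.

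Between IEC2 and IEC12, 6 of the 28 were higher and 6 lower in IEC12, shares near those of all genes tested (24.2% higher and 19.3% lower). PARD3 (3.27, limma adjusted p = 4.03e-06), PARD6A (1.12, limma adjusted p = 0.00683) and the cingulin relative CGNL1 (0.86, limma adjusted p = 0.00297) were higher. CLDN9 (-2.35, limma adjusted p = 0.00318), AMOTL2 (-1.86, limma adjusted p = 0.000267) and ARHGEF2 (-1.79, limma adjusted p = 0.001) were lower.

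In AOC, the wider list was lower than in IEC2 for 15 of 29 tested genes and higher for 2, lower than in IEC4 for 23 and higher for 2, and lower than in IEC12 for 13 and higher for 4. The shares of all genes tested that were lower in AOC were 37.1%, 47.0% and 36.2% in the same order, and those higher were 26.7%, 22.1% and 22.4%. In this fit, too, CLDN8, MAGI1, MARVELD2, PATJ and TJP3 met the filter only through IEC4, and ESAM met it only through AOC, which bears on these counts. ESAM, the endothelial adhesion molecule, was at 68.5, 75.7 and 39.5 FPKM in AOC and at no more than 0.558 FPKM in any IEC library. RAB13, a vesicle GTPase of junction assembly, was at 85.5 to 97.7 FPKM in AOC, above every IEC library, and differed by 0.57 to 0.88 on the log2 scale. CXADR was at 0.0363 to 0.0624 FPKM in AOC against 19.7 to 42.4 in the IEC libraries, and CLDN10 at no more than 0.0999 FPKM against 4.42 to 35.2. JAM3, which binds at endothelial and other contacts, was at 17.4 to 27.7 FPKM in AOC and at 15.7 to 32.3 in the IEC libraries, chosen for mention after its values were seen as a relative of F11R with overlapping groups.

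**Figure D5:**
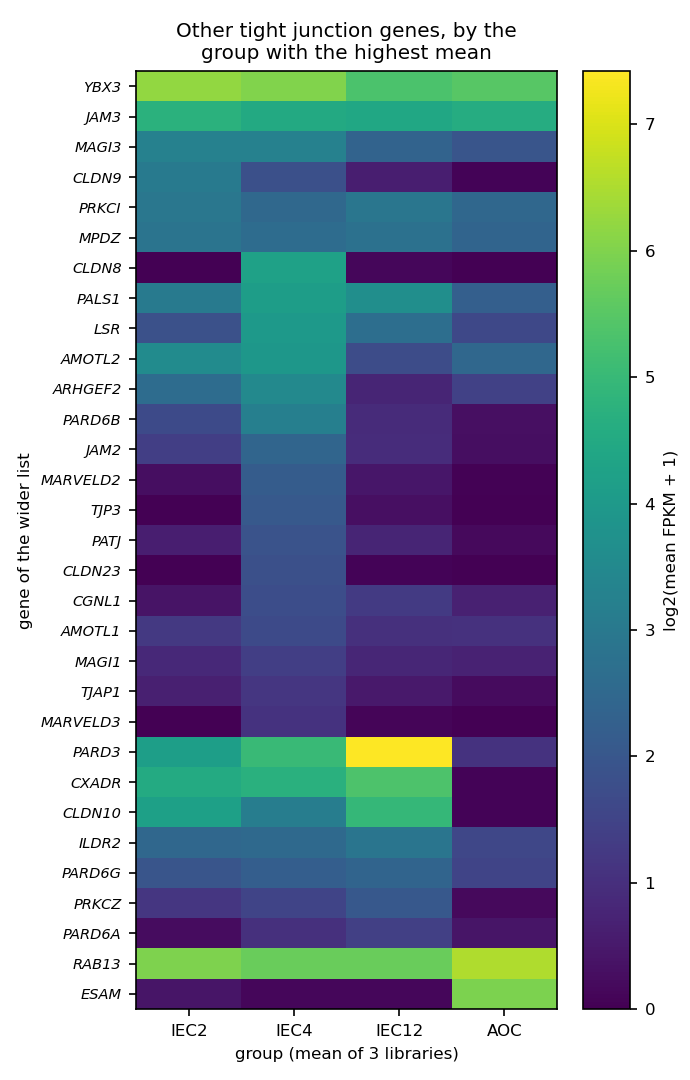
Mean level, as log2(mean FPKM + 1) (colour), in IEC2, IEC4, IEC12 and AOC (x) of 31 genes of the wider list with a mean of at least 1 FPKM in some group (y), ordered by the group with the highest mean. That group was IEC4 for 16 genes, IEC12 for 7, IEC2 for 6 and AOC for 2 (RAB13 and ESAM).

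The 7 tested genes did not share a single pattern over the 12 libraries. On log2(FPKM + 1), Pearson's r was 0.935 for CLDN3 and CLDN4, 0.93 for CLDN1 and CLDN4, 0.908 for OCLN and F11R and 0.939 for CLDN6 and TJP1, but -0.067 for CLDN6 and OCLN and -0.052 for CLDN6 and F11R. The 12 points are 4 groups of 3, and IEC4 C is high in most of these genes, so the values describe these groups and carry no p. Among 9158 other named genes, those most like CLDN4 were SCEL (r = 0.998), PDPN (0.997) and MMP7 (0.997), each listed at 0 in IEC2. Those most like CLDN3 were RARRES2 (0.974), IL2RG (0.973) and FAM83H (0.973), and those most like CLDN1 were ODAPH (0.989), TBC1D2 (0.974) and CLCF1 (0.954). CLDN6 was most like BTG3 (0.993), TPM2 (0.985) and SERPING1 (0.981), and TJP1 most like ZNF212 (0.977), SUSD4 (0.976) and PPAT (0.975). OCLN was most like GLA (0.978), STX3 (0.967) and PLXNA2 (0.965), and genes like F11R included ENC1 (0.979) and DAPK1 (0.978). BTG3, the gene most like CLDN6, spanned only 73.8 FPKM in AOC to 149 FPKM in IEC4, since r compares the shape of a pattern and not its size.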

How the data were processed

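Gene expression of 12 porcine libraries was analysed from the deposited FPKM tables, which hold 19681 Ensembl genes each, 13998 of them with a symbol in a table of gene names. The authors amplified cDNA by Smart-Seq2, sequenced it on an Illumina platform and used Galaxy for the analysis, and the deposited values are FPKM. The submitters' processing notes name Bowtie2 2.2.3, TopHat2 2.0.12, Cufflinks 2.2.1 and the build susScr11. Further scaling between libraries is not given in the sources used here. Groups and replicate letters came from the sample titles and source names. The libraries labelled iPS and S were not used here.

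Tests used limma 3.58.1 in R 4.3.3 on log2(FPKM + 1), with lmFit and eBayes (trend = TRUE), on genes that reached 1 FPKM in 3 or more libraries. Stages were compared in a fit of the 9 IEC libraries (10542 genes) and AOC with each stage in a fit of all 12 (11053 genes). The adjusted p is Benjamini-Hochberg over all genes of a fit. The tests were checked on simulated data. Tables, shares, exact permutation tests and figures used Python 3.11.15, NumPy 2.4.6, pandas 2.3.3, SciPy 1.17.1 and matplotlib 3.10.9.

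The members, lists and tests were chosen with earlier results of these data known. The genes named are the 9 members whatever their values, the 3 largest changes in each direction among passing genes of the wider list, the 3 genes most correlated with each member, and listed regulators. Of these, 2 genes are not reported here. Alternatives were a pseudocount of 0.1, no filter, other libraries in the fit, a replicate block, median-of-ratios scaling, equal totals, no variance trend, the study's limits and each library left out. The filter of IEC4 libraries left out was varied after the data were seen.

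The number of reads is unknown, and intervals from counts cannot be given. FPKM sums were 335976.4 to 457193.7. Steps of low values place 10 libraries at 1.023 to 1.374 times the depth of AOC A, and IEC12 A at 0.746 or 1.492, depending on whether its commonest step is 1 or 2 fragments. An FPKM of 0 can be a failed estimate. CLDN5 is not analysed here.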

Additional observations from a re-analysis of the deposited data

How the results depend on the processing

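Of 596 values of the 42 log2 differences of the junction genes under alternative settings, 569 kept their direction and their side of the threshold, 10 no longer passed, 9 newly passed and 8 turned direction. None of the turns involved a difference that had passed or a change of scaling. For IEC12 against IEC2 they were CLDN4 (-0.01 to 0.029 over all libraries left out in turn, below 0 without IEC12 B), F11R (-0.609 to 0.045, above 0 without IEC2 B or IEC12 A) and TJP1 (-0.283 to 0.03, above 0 without IEC2 C or IEC12 A). For AOC against IEC12 they were CLDN4 (-0.01 to 0.034, below 0 without AOC A, IEC12 A or IEC12 C). Causes were not tested.

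Under the study's limits, the comparisons IEC4 with IEC2, IEC12 with IEC4, IEC12 with IEC2, and AOC with IEC2, IEC4 and IEC12 passed 3, 1, 0, 1, 3 and 2 junction genes, 1, 1, 1, 4, 4 and 4 genes of the wider list, and 124, 99, 129, 605, 571 and 487 genes in all. The 0 is from limma, with 2 junction genes at an unadjusted p under 0.05. In IEC12 against IEC2, a pseudocount of 0.1 passed 3 junction genes (CLDN1 and CLDN3 were added) and equal totals passed 2 (CLDN6 was added). Leaving out 1 library gave 6 to 12 genes of the wider list for IEC4 against IEC2 and 10 to 18 for IEC12 against IEC4. The lower counts are partly a matter of construction, since genes high in IEC4 alone then fail the filter.

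With the 5 claudins found among the 6 listed as the total, CLDN6 held 99.6% in IEC2, 87.998% in IEC4 and 94.9% in IEC12, since CLDN10, CLDN9 and CLDN8 are then left out. This does not extend to AOC, where mean FPKM was 2.95 for CLDN6 and 2.46 for CLDN1. The replicate letters did not pair the libraries, with correlations of same-letter deviations from -0.514 to 0.246. The replicate block passed 7, 7, 1, 5, 6 and 4 junction genes, as without it, and 3900, 4569, 4496, 6943, 7505 and 6303 genes in all.

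Scaling moved the share of higher calls over all genes from 66.5% to 55.6% for IEC4 against IEC2 and from 38.2% to 48.8% for AOC against IEC12 (median-of-ratios). With equal totals it moved from 39.2% to 25.6% for IEC12 against IEC4, from 55.7% to 36.6% for IEC12 against IEC2 and from 41.9% to 31.1% for AOC against IEC2. The median log2 difference of all genes moved most for AOC against IEC2, from -0.20 to -0.45 with equal totals.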

Other observations

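Regulators of junction genes were read as a further list, of which 14 of 16 were found and 8 tested. Most are transcription factors, and ESRP1, among the 8, is a splicing regulator. From IEC2 to IEC4, 4 rose and 1 fell, where 24.8% of all genes tested rose and 12.5% fell, and these counts were the same without IEC4 C. The repressor SNAI1 rose from a mean of 0.972 to 6.10 FPKM (log2 difference 1.82, SE 0.37, limma adjusted p = 0.00391), in the contrast in which the junction genes rose, and the repressor SNAI2 fell from 4.25 to 1.003 FPKM (-1.40, limma adjusted p = 0.000483). The activator GRHL3 was listed at 0 in all 3 IEC2 libraries and was at 1.36, 1.05 and 3.10 FPKM in IEC4. KLF4 rose by 1.28 (limma adjusted p = 0.00613) and KLF5 by 1.21 (limma adjusted p = 0.00759). ZEB1, a repressor of E-cadherin, was at 15.5 FPKM in IEC4 and 22.3 in IEC2 (-0.50, limma adjusted p = 0.138) and did not pass.

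From IEC4 to IEC12, 4 of the 8 fell and 0 rose (limma), where 26.9% of all genes tested fell and 17.3% rose. Without IEC4 C, 3 fell and 1 rose. The splicing regulator of epithelia ESRP1 fell from 8.37 to 0.568 FPKM (-2.50, limma adjusted p = 0.000157), KLF4 from 5.23 to 0.286 FPKM (-2.24, limma adjusted p = 0.000302), ZEB1 from 15.5 to 5.95 FPKM (-1.30, limma adjusted p = 0.00244) and SNAI1 from 6.10 to 2.29 FPKM (-1.20, limma adjusted p = 0.0243). Without IEC4 C, SNAI1 did not pass (-0.97, limma adjusted p = 0.0824) and KLF5 passed as higher in IEC12 (0.86, limma adjusted p = 0.0272). GRHL3 was at 1.56, 2.84 and 4.66 FPKM in IEC12, and its difference from IEC4 did not pass (0.50, SE 0.32, limma adjusted p = 0.237). KLF5 was at 8.23 to 10.999 FPKM in IEC12 and at no more than 0.0478 FPKM in AOC.

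AOC, with OCLN and F11R high, had the highest mean of SNAI1 (7.30 FPKM) and the lowest of SNAI2 (0.190 FPKM) among the 4 groups. The difference of SNAI1 between AOC and IEC4 did not pass (0.25, SE 0.34, limma adjusted p = 0.532). The part of any of these factors in the levels of the junction genes was not tested.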
